A study of Paspalum vaginatum with 72 samples.

Results

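Seashore paspalum (Paspalum vaginatum) is a halophytic turfgrass, and 71 of the 27743 gene models in its expression table carried a Swiss-Prot name of an amino acid carrier. Members were the models whose name contained amino acid permease, amino-acid permease, lysine histidine transporter, amino acid transporter, GABA transporter or proline transporter, in upper or lower case. The rule used names and no expression value, although earlier results of these data were known when it was set. Of these 71, 18 were named cationic amino acid transporters (CAT), 16 vacuolar amino acid transporters (AVT), 15 amino acid permeases (AAP), 9 bidirectional amino acid transporters (BAT1 or BAT1 homolog), 5 lysine histidine transporters (LHT), 5 GABA transporters, 1 proline transporter and 2 aromatic and neutral amino acid transporters (ANT1). The members carried 32 different names and lay on 10 chromosomes. A name marks the best match in Swiss-Prot and not a tested function in this grass.

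Plants move nitrogen between organs mostly as amino acids, which membrane carriers load into and out of the xylem and the phloem. AAP, LHT, ProT and GABA transporters are proton-coupled importers of the plasma membrane, CAT proteins carry basic and neutral amino acids, BAT1 of Arabidopsis moves amino acids in both directions, and AVT proteins take their name from yeast carriers that fill or empty the vacuole. Under salt many plants accumulate proline and GABA as compatible solutes or nitrogen stores, and carriers of both compounds have been followed in salt-treated plants.

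RNA was sequenced from leaves and roots of the salt-tolerant accession USA17-18 and the salt-sensitive accession USA17-26, grown in hydroponic containers. Each accession and tissue was sampled before salt (time 0, the non-stressed controls, which received no NaCl) and after 8, 12, 24 and 48 h and 5 days of salt, with 3 libraries in each of 24 groups and 72 libraries in all. No transgene or introduced allele is named for either accession, 1 accession stands for each tolerance class, and the methods count several plants together as a replicate, with the salt raised in daily steps. The labels give 400 mM NaCl for every salt time, and the concentration reached at 8 to 48 h is uncertain. P-values measure the spread between these samples of 1 experiment. Controls are labelled for time 0 only, so salt and the hour or age of sampling cannot be told apart.

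The libraries were first compared with their labels. FPKM (fragments scaled by transcript length and by the mapped fragments of the library) summed to 671959 to 774486 per library, 17555 to 20676 gene models reached 1 FPKM, and the depth in reads is unknown, although the smallest steps between low values of 89 genes gave relative depths of 0.764 to 1.286. Genes whose non-stressed libraries lay at least 8-fold apart between the accessions in the other tissue separated the accessions in most libraries, with a mean log2 difference between tolerant-type and sensitive-type genes of 2.39 to 3.60 in 14 tolerant leaf libraries and -2.26 to -1.70 in the sensitive ones. In the other 4 tolerant leaf libraries this score was only -0.37 to 0.11 (the library labelled 8 h replicate 1 and all 3 labelled 12 h), and in 2 tolerant root libraries it was 0.93 to 1.33 (labelled 8 h replicate 1 and 12 h replicate 1) against 2.31 to 2.80 in the rest and -3.58 to -2.87 in sensitive roots. The 4 leaf libraries thus lay between the accessions, and the 2 root libraries lay below the others of their label but on the tolerant side. Several counts of tolerant calls and some gene values are also given without these 6 libraries. Other tolerant values that use 8 or 12 h libraries are given with them only. Of 24 called tolerant changes averaged over 8 to 48 h (calls are defined below), 23 kept their call without the 6 libraries. The remaining 1 lost it, and 0 changed direction. Defining leaf genes (15 photosynthesis genes) summed to 307 to 43228 FPKM in leaves and 1.4 to 1178.9 FPKM in roots, while 5 root genes gave 2.7 to 17.9 FPKM in leaves and 12.3 to 45.5 FPKM in roots. The clock gene CCA1 (emOS184.45) was at 0.6 to 20.42 FPKM in the 18 leaf libraries of 0, 8 and 12 h and at 304 to 1070 FPKM in the 18 of 24 h, 48 h and 5 days, and roots showed the same split (0.94 to 26.19 against 130 to 489 FPKM). Its part in the transporter values was not tested.

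A gene was tested in a tissue where at least 3 of its 36 libraries reached 1 FPKM, and a call required a Benjamini-Hochberg adjusted p from limma no higher than 0.05 and a change of 1.5 or more on the log2 scale, up or down. Fold changes are differences of log2(FPKM + 1), which understate the change of genes with low values. In leaves 59 members were tested and in roots 58, with 57 tested in both, and the 11 tested in neither never exceeded 1.2 FPKM. 4 of the tested members in leaves and 4 in roots reached 1 FPKM in salt libraries only, and these had to differ if they were to be tested at all. Bulk tissue gives 1 value for many cells, so fewer cells of a type and less RNA per cell cannot be told apart.

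In leaves under salt, AVT1A, AVT1J, ANT1 and an LHT1 gene were higher and the proline transporter ProT1 and a BAT1 gene were lower, in both accessions. The mean of the 8, 12, 24 and 48 h groups against time 0 called 6 of 59 members higher and 4 lower in the tolerant accession, beside 5.82% of all tested genes higher and 4.29% lower. In the sensitive accession 4 members were higher and 2 lower, beside 3.86% and 4.39% of all genes. All 4 members called higher in the sensitive leaf, and both called lower, had the same call in the tolerant leaf. The overlap of calls among all genes is not given here, so this overlap cannot be set apart from theirs. The counts of higher members include AVT1J (emFS18.286), which was tested in leaves only because its salt libraries were high. The median log2 fold change of the members was 0.08 in the tolerant and -0.10 in the sensitive leaf, beside 0.09 and -0.23 for all genes. Without the 6 libraries, 9 of the 10 calls of the tolerant leaf were kept, 1 was lost and 2 were gained. Median-ratio scaling moved the median of all genes in the sensitive leaf from -0.23 to -0.04 and the share of its calls that were higher from 46.8% to 60.5%, with 4 members higher and 1 lower.

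The proline transporter emFS4.620 (ProT1, chromosome 3, 43076172 to 43078836) was lower under salt in leaves of both accessions. ProT proteins import proline, glycine betaine and GABA across the plasma membrane. Its tolerant leaf controls were at 89.7, 66.5 and 67.6 FPKM, and the 12 libraries of 8 to 48 h ran from 5.88 to 23.9 FPKM with a median of 15.4 FPKM. In the sensitive leaf the controls were at 43.4, 82.1 and 78.4 FPKM and the 12 salt libraries ran from 4.6 to 41.9 FPKM with a median of 15.7 FPKM. Every salt library lay below every control of its accession. The log2 fold change was -2.37 ± 0.36 (SE, adjusted p = 5.9e-06) in the tolerant leaf and -2.03 ± 0.36 (adjusted p = 8.0e-05) in the sensitive leaf. At 12 h the 3 libraries labelled tolerant were at 14.1, 6.53 and 5.88 FPKM and the 3 sensitive ones at 4.6, 10.7 and 6.47 FPKM, the lowest group in each accession. By 5 days the tolerant leaf had 28.3, 38.7 and 26.8 FPKM, still below its controls, and that contrast (-1.23 ± 0.45) did not reach the fold threshold. The sensitive leaf had 25.8, 9.78 and 28.7 FPKM at 5 days, also below its controls, and was called (-1.70 ± 0.45, adjusted p = 0.0066), although the call ended without 5 days replicate 2 (range -1.99 to -1.24 when each library was left out). The tolerant value was -2.20 when the 6 libraries were left out.

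Leaf transcripts of the aromatic and neutral amino acid transporter ANT1 and of AVT1A rose in every salt library of both accessions. ANT1 of Arabidopsis carries aromatic and neutral amino acids, and Avt1 of yeast, after which the AVT1 genes are named, moves neutral amino acids into the vacuole. For the ANT1 gene emOS99.355 (chromosome 1, 2291154 to 2293064) the tolerant controls were at 6.53, 3.26 and 2.43 FPKM and the salt libraries at 30.5 to 66.9 FPKM (median 52.8 FPKM). The sensitive controls were at 7.41, 3.92 and 6.84 FPKM and the salt libraries at 20.6 to 69.8 FPKM (median 46.4 FPKM). Controls and salt libraries did not overlap. The rise was 3.42 ± 0.29 on the log2 scale (adjusted p = 5.1e-10) in the tolerant and 2.74 ± 0.29 (adjusted p = 5.1e-08) in the sensitive leaf. At 5 days the sensitive leaf had come down to 18.4, 12.5 and 12.1 FPKM, a fall of 1.61 from the mean of the earlier salt times (SE 0.29, adjusted p = 4.0e-04), while the tolerant leaf held 33.7, 28.0 and 53.9 FPKM, -0.43 ± 0.29 from that mean. The difference between those 2 late changes was not tested.

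The AVT1A gene emOS36.320 (chromosome 4, 2194976 to 2200577) was called at all 5 salt times in both accessions and both tissues. In roots it was tested only because its salt libraries were high, so its root calls add no support. Its tolerant leaf controls were at 10.2, 10.6 and 11.2 FPKM and its sensitive ones at 7.24, 9.82 and 16.6 FPKM. At 24 h, the highest group of each accession, the tolerant leaf reached 160.2, 163 and 147 FPKM and the sensitive leaf 121, 211 and 207 FPKM. All 12 salt libraries of 8 to 48 h lay above the controls in each accession, with log2 fold changes of 3.02 ± 0.28 (adjusted p = 1.9e-09) and 3.01 ± 0.28 (adjusted p = 4.4e-09). The neighbouring AVT1A model emOS36.319, 1748 bp away on the same strand, stayed at or below 6.30 FPKM in leaves, and its mean contrast of 1.27 ± 0.30 in the tolerant and 0.29 ± 0.30 in the sensitive leaf was not called.

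**Figure D1:**
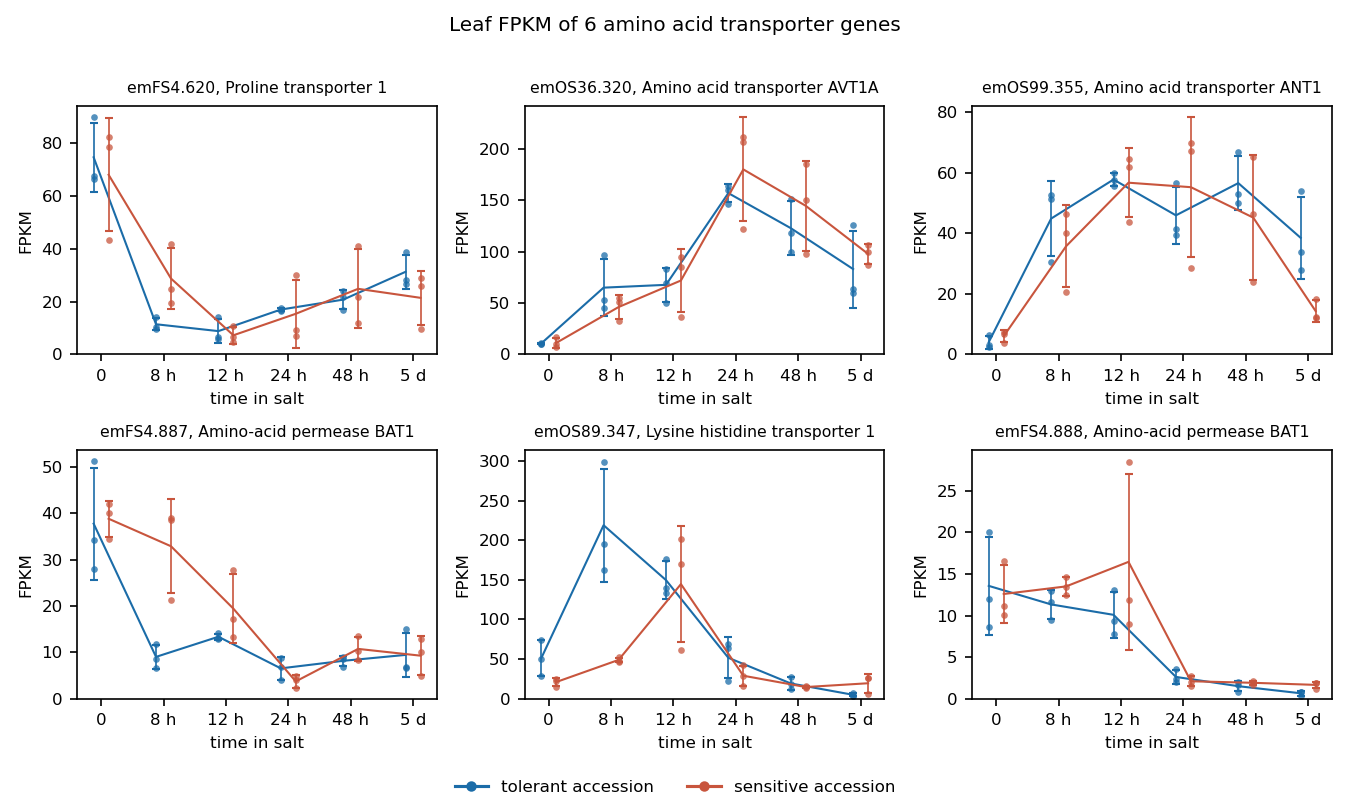
Leaf FPKM (y axis) of 6 amino acid transporter genes at time 0 and at 5 salt times (x axis, categories, not to scale), with points for the 3 libraries, lines through group means and bars of 1 SD, tolerant accession in blue and sensitive in red. The proline transporter emFS4.620 falls from 43.4 to 89.7 FPKM in controls to 4.6 to 14.1 FPKM at 12 h, emOS36.320 and emOS99.355 rise at every time from 8 to 48 h, and emFS4.888 lies at 7.77 to 28.5 FPKM at 8 and 12 h and at 3.52 FPKM or less from 24 h on.

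Other leaf genes that rose were less even between libraries. The AVT1J gene emFS18.286 was at 0.52, 0.23 and 0.09 FPKM in tolerant controls and at 14.4, 131 and 68.9 FPKM at 24 h, and its sensitive controls of 0.31, 0.04 and 0 FPKM gave way to 39.8, 21.0 and 51.4 FPKM at 12 h. Tolerant leaves were highest at 24 h and sensitive leaves at 12 h, all 12 salt libraries exceeded all controls in each accession, and the mean change was 3.68 ± 0.65 (adjusted p = 4.6e-05) and 3.06 ± 0.65 (adjusted p = 6.2e-04). This gene reached 1 FPKM in leaves only under salt. The lysine histidine transporter emOS105.226, whose Arabidopsis namesake LHT1 takes up amino acids into root and mesophyll cells, had tolerant controls of 2.29, 4.94 and 3.44 FPKM and salt libraries of 3.47 to 58.6 FPKM (median 15.4 FPKM). Its sensitive controls of 0.75, 1.80 and 1.19 FPKM all lay below the salt range of 2.64 to 50.2 FPKM (median 9.0 FPKM). The changes were 1.99 ± 0.45 (adjusted p = 8.3e-04) and 2.39 ± 0.45 (adjusted p = 1.9e-04), with 11 of 12 tolerant and 12 of 12 sensitive salt libraries above all controls. Without the 6 libraries the tolerant change was 1.52.

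The tolerant leaf alone passed the threshold for 4 further members, and the accession difference was called for none of them. The AVT1C gene emOS126.19 rose from 6.10, 1.63 and 1.10 FPKM to 43.3, 47.9 and 48.7 FPKM at 8 h, with a mean change of 2.66 ± 0.38 (adjusted p = 3.0e-06), while the sensitive leaf started higher, at 12.6, 7.16 and 8.92 FPKM, and changed by 0.99 ± 0.38. The AAP3 gene emOS72.342 rose by 1.77 ± 0.49 (adjusted p = 0.0055) with 31.3, 58.8 and 49.9 FPKM in the 3 libraries labelled 12 h against controls of 2.06, 3.83 and 5.10 FPKM, and this call ended without the 6 libraries (1.25, adjusted p = 0.079) and without control replicate 1 (1.49). The second AAP3 gene, emOS81.54, went the other way, from 10.8, 20.6 and 16.4 FPKM to 2.77, 0.54 and 1.09 FPKM in the libraries labelled 12 h (mean change -1.82 ± 0.40, adjusted p = 5.5e-04, and -1.51 without the 6 libraries). The CAT7 gene emOS169.181 fell from 3.42, 3.70 and 2.83 FPKM to between 0.04 and 1.10 FPKM (-1.61 ± 0.16, adjusted p = 9.3e-09), and in the sensitive leaf its change of -1.35 ± 0.16 missed the fold threshold with an adjusted p of 3.5e-07.

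All 9 BAT genes were tested in leaves, and their summed level was low from 24 h on. BAT1 of Arabidopsis is found in vascular tissue and has also been described as a mitochondrial GABA permease. The 9 genes together summed to 97.2 to 162 FPKM in tolerant controls, 160.0 to 237 FPKM at 8 h, 39.7 to 68.9 FPKM at 24 h and 24.5 to 31.3 FPKM at 5 days. In the sensitive leaf the same sum was 118 to 151 FPKM in controls, 132 to 157 FPKM at 8 h, 60.8 to 64.6 FPKM at 24 h and 35.7 to 48.1 FPKM at 5 days. Controls and the libraries of 24 h and later did not overlap in either accession. The BAT1 gene emFS4.887 (chromosome 3, 45027620 to 45029883) fell earliest in the tolerant leaf, from 27.9, 51.2 and 34.2 FPKM to 6.65, 11.8 and 8.59 FPKM at 8 h, with a mean change of -1.94 ± 0.27 (adjusted p = 2.1e-06). In the sensitive leaf it was still at 39.0, 38.5 and 21.2 FPKM at 8 h against controls of 34.4, 40.1 and 41.9 FPKM, and at 4.05, 2.20 and 4.87 FPKM at 24 h. Its sensitive mean change of -1.55 ± 0.27 (adjusted p = 7.7e-05) lost its call without any 1 of 4 libraries (-1.49 to -1.48), those being control replicate 3, 8 h replicate 3, 12 h replicate 3 and 24 h replicate 2, and under median-ratio scaling (-1.35). Its neighbour emFS4.888, 3728 bp away on the same strand, was at 8.61, 20.1 and 12.0 FPKM in tolerant controls, 11.6, 9.48 and 12.96 FPKM at 8 h, 2.34, 1.96 and 3.52 FPKM at 24 h and 0.79, 0.32 and 0.81 FPKM at 5 days. The changes of emFS4.888 at 24 h, 48 h and 5 days were -1.96, -2.50 and -3.09 in the tolerant and -2.13, -2.20 and -2.34 in the sensitive leaf (SE 0.31 each).

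In roots AVT6A, AVT1A, AVT3B, AVT1C and a pair of LHT genes were higher, and AAP2, AAP8, AAP5, GABA transporter 2 and CAT3 were lower, in both accessions. The mean contrast called 9 of 58 members higher and 5 lower in the tolerant root, beside 4.69% of all tested genes higher and 5.05% lower. In the sensitive root 6 members were higher and 8 lower, beside 4.26% and 5.74% of all genes. 6 members were called higher and 5 lower in both accessions. How often genes in general had the same call in both roots is not given here, so this overlap is not particular to the members. The counts of higher members include AVT1A (emOS36.320) and the LHT1 gene emOS105.226, which were tested in roots only because their salt libraries were high. The members' medians were 0.12 in the tolerant and 0.14 in the sensitive root, beside -0.04 and -0.10 for all genes. All 14 calls of the tolerant root were kept without the 2 root libraries of low accession score.

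The AVT6A gene emOS79.751 (chromosome 4, 42543080 to 42545534) had the highest level among the root genes that changed. Avt6 of yeast, its namesake, exports acidic amino acids from the vacuole. Root controls were tight, at 25.8, 21.8 and 24.0 FPKM in the tolerant and 26.2, 21.6 and 23.8 FPKM in the sensitive accession. At 8 h they gave way to 608, 493 and 624 FPKM and to 340, 815 and 386 FPKM, and all 12 libraries of 8 to 48 h stayed above the controls in each accession. The mean changes were 3.49 ± 0.38 (adjusted p = 3.2e-08) and 3.56 ± 0.38 (adjusted p = 2.0e-08). At 5 days the gene had come down to 66.0, 117 and 56.0 FPKM in the tolerant root and 54.4, 67.6 and 271 FPKM in the sensitive root, a change from the earlier salt times of -1.86 ± 0.38 (adjusted p = 0.0012) and -1.53 ± 0.38 (adjusted p = 0.0055). The sensitive call at 5 days against earlier times ended without any 1 of 5 sensitive root libraries (range -2.25 to -1.10), namely 8 h replicate 2, 12 h replicate 2, 48 h replicate 1 and 5 days replicates 1 and 2. A second AVT6A gene, emOS105.382, was at 209 to 642 FPKM in roots and 102.5 to 646 FPKM in leaves, and its mean change was not called in any tissue (1.11 in the tolerant leaf, 0.21 in the sensitive leaf, -0.05 and -0.12 in roots).

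Of the 11 AVT genes tested in roots, 4 were higher and 0 lower in each accession. Of all genes, 4.69% were higher and 5.05% lower in the tolerant root, and 4.26% and 5.74% in the sensitive root. The AVT medians were 1.00 and 0.22, beside -0.04 and -0.10 for all genes. AVT1A (emOS36.320) was at or below 0.18 FPKM in root controls, at 0.18, 0.14 and 0.03 FPKM in the tolerant and 0.09, 0.12 and 0.09 FPKM in the sensitive accession. At 24 h it stood at 18.7, 34.6 and 16.1 FPKM and at 27.4, 36.9 and 27.2 FPKM, with mean changes of 3.51 ± 0.34 (adjusted p = 4.0e-09) and 3.83 ± 0.34 (adjusted p = 8.1e-10). No root control overlapped a salt library, but the gene reached 1 FPKM in roots only under salt. It was therefore tested there only because its salt libraries were high. The AVT3B gene emOS174.507, whose yeast namesake Avt3 exports neutral amino acids from the vacuole, went from 53.0, 44.0 and 39.1 FPKM to 263, 216 and 239 FPKM at 8 h in the tolerant root and from 26.0, 27.4 and 21.97 FPKM to 185, 247 and 132 FPKM in the sensitive root. It declined after 8 h but remained above all controls to 48 h, with mean changes of 1.75 ± 0.20 (adjusted p = 5.8e-08) and 2.30 ± 0.20 (adjusted p = 4.7e-10). AVT1C (emOS126.19) rose by 2.44 ± 0.56 (adjusted p = 7.8e-04) from 0.96 to 1.76 FPKM in controls, and by 1.96 ± 0.56 (adjusted p = 0.0048) from 2.21 to 5.4 FPKM, with medians of 9.89 and 11.7 FPKM under salt.

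2 of the 4 lysine histidine transporters tested in roots rose in both accessions, beside 4.69% and 4.26% of all genes called higher. The LHT1 gene emOS105.226 (chromosome 7, 2865700 to 2868759) was at 0.02 to 0.09 FPKM in all 6 root controls and at 17.4, 15.1 and 16.2 FPKM in the tolerant and 16.7, 26.4 and 3.77 FPKM in the sensitive root at 8 h. Its mean changes were 3.39 ± 0.42 (adjusted p = 2.7e-07) and 2.79 ± 0.42 (adjusted p = 4.6e-06), and like AVT1A it reached 1 FPKM in roots only under salt. The LHT-like 6 gene emFS22.871 (chromosome 6, 13096819 to 13099352) was at higher levels at 24 h than at 8 h in the tolerant root. Tolerant controls were at 10.4, 9.61 and 6.49 FPKM, the 8 h libraries at 27.2, 45.1 and 29.9 FPKM, and the 24 h libraries at 117, 107 and 128 FPKM, with 81.3, 88.0 and 93.7 FPKM still there at 5 days. The sensitive root went from 8.70, 10.8 and 5.13 FPKM through 9.92, 43.9 and 6.14 FPKM at 8 h to 38.3, 81.4 and 41.3 FPKM at 24 h, so that its 8 h libraries overlapped the controls and its 24 h libraries did not. Mean changes were 2.56 ± 0.38 (adjusted p = 3.8e-06) and 1.82 ± 0.38 (adjusted p = 2.7e-04), and the sensitive value fell below the fold threshold without 48 h (1.44).

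A pair of neighbouring amino acid permease genes fell in roots of both accessions. AAP proteins load a broad range of neutral and acidic amino acids, and AAP2 and AAP8 of Arabidopsis work along the phloem. For emOS72.406 (AAP2, chromosome 8, 7419014 to 7420087) the tolerant root controls were at 19.1, 25.2 and 22.3 FPKM and the 8 h libraries at 0.72, 0.66 and 0.49 FPKM. In the sensitive root, controls of 35.7, 24.9 and 25.7 FPKM gave way to 0.35, 0.42 and 1.24 FPKM. No library of 8 to 48 h reached the control range, and the mean changes were -2.99 ± 0.37 (adjusted p = 2.2e-07) and -2.84 ± 0.37 (adjusted p = 4.2e-07). The gene emOS72.405 (AAP8, chromosome 8, 7417765 to 7418601) ends 412 bp before it on the same strand and moved alongside, from 12.7, 19.7 and 16.1 FPKM to 0.66, 0.33 and 0.43 FPKM and from 27.8, 21.5 and 19.6 FPKM to 0.03, 0.17 and 1.07 FPKM, with mean changes of -2.73 ± 0.33 and -2.87 ± 0.33 (adjusted p = 1.9e-07 and 7.3e-08). Whether these are 2 genes or 1 gene split by the annotation was not tested. AAP5 (emFS4.437), which in Arabidopsis takes up basic amino acids into roots, fell by 1.82 on the log2 scale in the tolerant root (SE 0.43, adjusted p = 0.0011) and by 2.27 in the sensitive root (SE 0.43, adjusted p = 9.0e-05). AAP3 (emOS72.342) instead rose in the tolerant root, from 2.76, 4.20 and 2.44 FPKM to 2.73 to 57.1 FPKM (2.13 ± 0.58, adjusted p = 0.004), and its sensitive change was 1.48 ± 0.58.

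The GABA transporter 2 gene emFS1.551 (chromosome 9, 46821145 to 46823819) was found almost only in roots and was lowest there at 8 h of salt. GABA transporters import the non-protein amino acid GABA. In roots its controls were at 27.3, 22.03 and 22.2 FPKM in the tolerant and 16.7, 13.4 and 17.2 FPKM in the sensitive accession, and at 8 h it was at 0.86, 0.39 and 0.41 FPKM and at 1.32, 0.56 and 0.74 FPKM. At 48 h it was higher again, at 2.81, 6.69 and 3.93 FPKM and at 3.92, 6.84 and 5.2 FPKM, still below every control. The mean changes were -2.74 ± 0.20 (adjusted p = 1.8e-11) and -2.34 ± 0.20 (adjusted p = 3.5e-10). At 5 days the tolerant root was at 11.02, 9.84 and 9.16 FPKM, higher than at the earlier salt times by 1.57 ± 0.20 (adjusted p = 5.0e-06), while the sensitive root was at 3.55, 2.99 and 2.01 FPKM (0.20 ± 0.20). The accession difference of this late change was not tested. GABA transporter 1 (emFS18.1910) was at 3.80 to 26.1 FPKM in leaves, and its mean change was not called in either tissue.

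Among the cationic amino acid transporters, 1 rose and 1 fell of the 14 tested in the tolerant root, and 1 fell in the sensitive root. CAT3 (emOS37.73) had tight tolerant controls of 18.1, 16.9 and 16.7 FPKM and sensitive controls of 15.3, 14.4 and 15.9 FPKM, against salt medians of 3.54 and 2.98 FPKM. The highest salt library, at 5.56 FPKM, lay far under the lowest control, and the mean changes were -2.10 ± 0.17 (adjusted p = 2.4e-10) and -2.08 ± 0.17 (adjusted p = 2.6e-10). CAT5 (emFS24.605), a high-affinity importer of basic amino acids in Arabidopsis, rose in the tolerant root from 1.32, 2.66 and 1.39 FPKM to a median of 12.8 FPKM (1.74 to 20.1 FPKM), a change of 2.14 ± 0.46 (adjusted p = 4.0e-04). The sensitive root started at 3.30, 10.8 and 10.7 FPKM and changed by -0.01 ± 0.46. ANT1 (emOS99.355) rose in the tolerant root from 20.5, 10.4 and 11.8 FPKM to a median of 62.4 FPKM (2.04 ± 0.29, adjusted p = 1.7e-06), and in the sensitive root its change of 1.31 ± 0.29 missed the fold threshold with an adjusted p of 4.6e-04.

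3 of the 9 BAT genes were called lower in the sensitive root and 0 in the tolerant root, beside 5.74% and 5.05% of all genes. In the tolerant root 7 of the 9 changes were nonetheless below 0. There 4 of the 9 had an adjusted p of 0.05 or less in limma but missed the fold threshold. emFS4.887 went from 9.94 to 13.4 FPKM in sensitive controls to a median of 2.71 FPKM (-1.68 ± 0.26, adjusted p = 5.7e-06), and emFS4.892 from 4.14 to 5.31 FPKM to a median of 0.49 FPKM (-1.76 ± 0.19, adjusted p = 3.6e-08). emOS169.410 fell from 15.3 to 16.9 FPKM to a median of 4.46 FPKM (-1.60 ± 0.36, adjusted p = 5.4e-04), a call that ended without 12 h replicate 2 (-1.48) and under median-ratio scaling (-1.49). The tolerant root gave -0.54 ± 0.26, -1.20 ± 0.19 and -1.31 ± 0.36 for these genes, and the accession difference was not called for any of them.

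**Figure D2:**
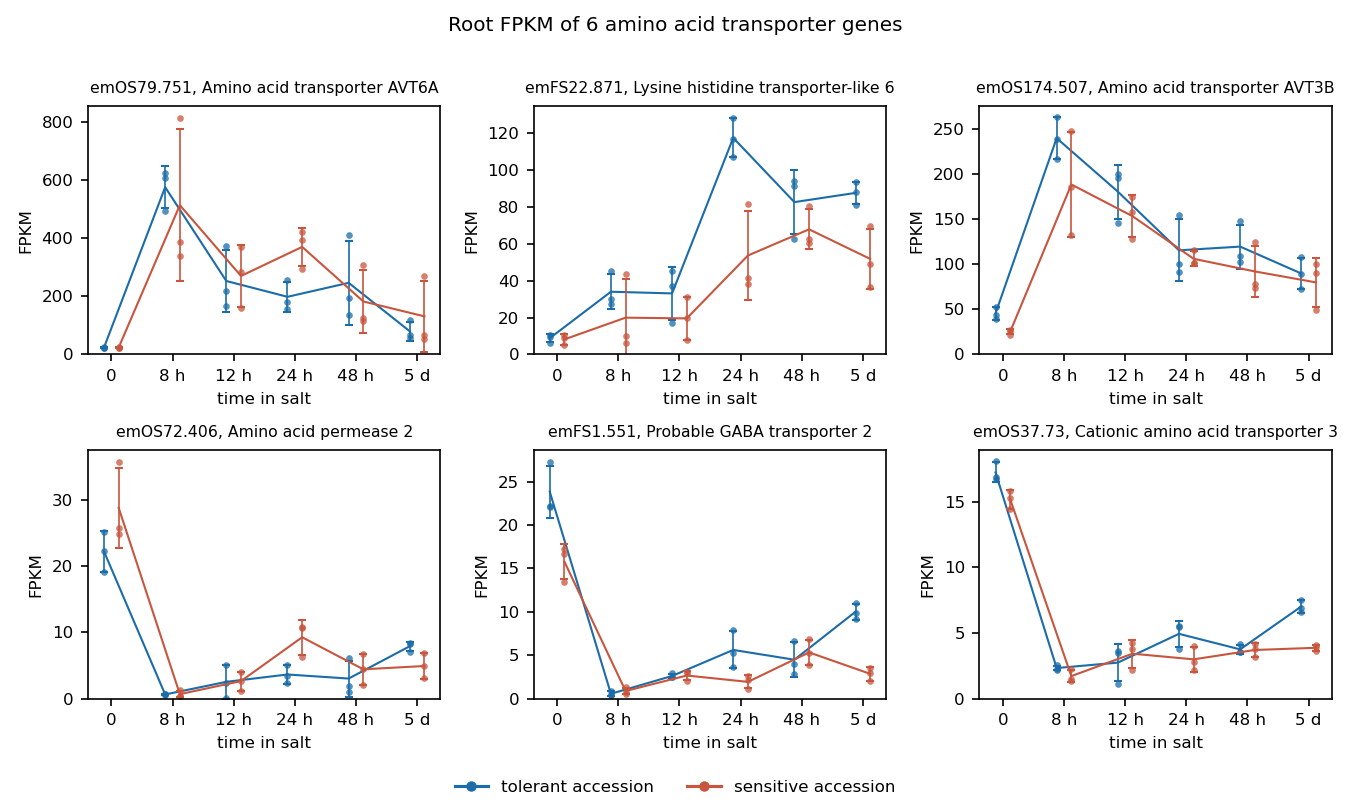
Root FPKM (y axis) of 6 amino acid transporter genes at time 0 and at 5 salt times (x axis, categories, not to scale), with points for the 3 libraries, lines through group means and bars of 1 SD, tolerant accession in blue and sensitive in red. AVT6A (emOS79.751) and AVT3B (emOS174.507) are highest at 8 h, LHT-like 6 (emFS22.871) is highest at 24 or 48 h, and GABA transporter 2 (emFS1.551) and CAT3 (emOS37.73) are lowest at 8 h. AAP2 (emOS72.406) is low at 8 h, although its lowest tolerant library (0.08 FPKM) is at another salt time.

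At single times the share of members called was above that of all genes in each group, a difference that was not tested. In the tolerant leaf 15, 17, 13 and 12 of 59 members were called at 8, 12, 24 and 48 h, beside 11.9%, 13.9%, 13.7% and 10.8% of all genes. In the sensitive leaf the counts were 2, 12, 14 and 8, beside 1.65%, 8.94%, 22.7% and 8.55%, so at 24 h the members' share (23.7%) was near that of all genes. Tolerant roots had 19, 16, 13 and 15 of 58 called, beside 12.7%, 10.7%, 9.10% and 9.74%, and sensitive roots 18, 17, 15 and 10, beside 12.9%, 11.4%, 11.9% and 9.36%. The contrasts of 1 accession and tissue share the 3 libraries of time 0, so calls at successive times are not independent. These counts, and those for pairs of times and for 5 days below, are over all tested members. Of those members, 4 in leaves and 4 in roots reached 1 FPKM only under salt. Over all 5 salt times and the 4 combinations of accession and tissue there were 262 calls, and 64 of them ended when some 1 library was left out. Without the 6 libraries the tolerant leaf at 8 h had 11 calls, with no 12 h group left, and the tolerant root had 19 at 8 h and 17 at 12 h. The root balance went from 14 higher and 5 lower to 11 and 8 at 8 h, with 3 calls lost and 3 gained. At 12 h it went from 7 higher and 9 lower to 10 and 7, with 3 calls lost and 4 gained. Median-ratio scaling changed the balance at some times, from 11 higher and 4 lower to 9 and 4 in the tolerant leaf at 8 h, from 4 and 10 to 9 and 8 in the sensitive leaf at 24 h, from 3 and 5 to 3 and 3 there at 48 h, and from 6 and 12 to 7 and 9 in the sensitive root at 8 h. With the same scaling the tolerant root at 12 h turned from 7 higher and 9 lower to 11 and 8. The tolerant leaf at 24 h turned from 6 higher and 7 lower to 8 and 6.

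**Figure D3:**
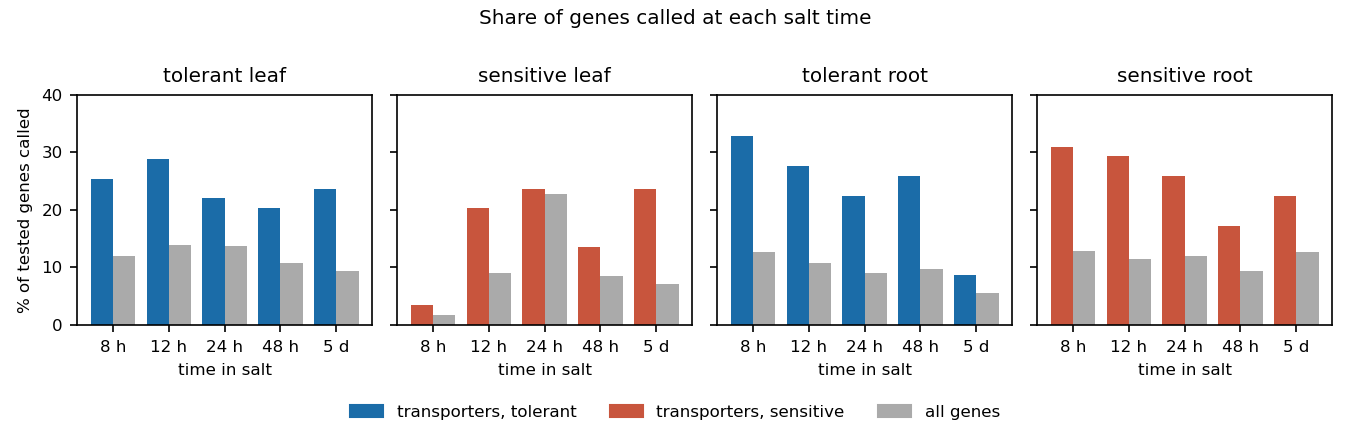
Share of tested genes called (y axis, percent) at each salt time (x axis) for the amino acid transporter genes (blue in the tolerant, red in the sensitive accession) and for all genes (gray), in each accession and tissue. The transporter share is above that of all genes in each pair of bars, with the smallest gap in the sensitive leaf at 24 h, where it is 23.7% beside 22.7%.

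The leaf calls were also counted at the early and the later times apart, and the difference between these times was not tested. With 8 and 12 h averaged, 12 members were higher and 5 lower in the tolerant leaf, beside 7.11% and 5.38% of all genes, and with 24 and 48 h averaged 5 were higher and 6 lower, beside 7.04% and 4.72%. In the sensitive leaf the counts went from 6 higher and 1 lower, beside 2.87% and 1.93% of all genes, to 4 higher and 9 lower at 24 and 48 h, beside 6.02% and 8.93%. Tolerant roots had 12 members higher and 6 lower at 8 and 12 h, beside 5.39% and 5.68% of all genes, and 8 and 5 at 24 and 48 h, beside 4.55% and 4.94%. Sensitive roots had 7 higher and 10 lower, beside 5.54% and 6.36%, and then 6 and 9, beside 4.27% and 6.02%. The leaf counts depend on the scaling and on a few libraries. At 24 h alone, median-ratio scaling changed the sensitive leaf from 4 members higher and 10 lower to 9 higher and 8 lower. Of the 6 tolerant leaf libraries of 8 and 12 h, 4 are among those of low accession score, and without them the tolerant leaf at 8 h had 7 members higher and 4 lower, against 11 and 4 with them. CCA1 is low in the first pair of times and high in the second, as given above, and its part in these counts was not tested. Leaf marker transcripts also moved, from 31845 to 43228 FPKM in tolerant leaf controls to 307 to 2186 FPKM in the 6 tolerant libraries of 8 and 12 h, and their part was not tested either.

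The second LHT1 gene, emOS89.347, was higher than in controls at 8 h and lower at 5 days in tolerant leaves. In tolerant leaves it went from 28.9, 74.0 and 49.8 FPKM in controls to 300, 163 and 195 FPKM at 8 h, and then to 27.7, 18.1 and 11.6 FPKM at 48 h. Tolerant leaves at 5 days held 3.81, 3.70 and 6.81 FPKM, below every control. In sensitive leaves it rose from 15.04, 25.1 and 22.6 FPKM to 61.8, 202 and 170.1 FPKM at 12 h and was back at 15.9, 12.9 and 15.1 FPKM at 48 h. The tolerant changes were 2.14 ± 0.49 at 8 h and -3.11 ± 0.49 at 5 days, and the sensitive change at 12 h was 2.60 ± 0.49. In roots this gene stayed between 33.5 and 190 FPKM with no call. AAP7 (emOS174.206) was not higher at 8 h in tolerant leaves but was higher at 48 h. Its controls were at 3.61, 1.20 and 0.76 FPKM, and its 8 h libraries of 1.33, 2.75 and 1.18 FPKM lay within their range. At 48 h it was at 16.2, 17.0 and 7.78 FPKM. Root levels of AAP7 fell from 65.2, 55.9 and 63.1 FPKM to 9.27, 14.7 and 9.35 FPKM at 8 h in the sensitive accession and were back at 71.1, 87.8 and 94.6 FPKM at 48 h. Its changes were 2.42 ± 0.55 in the tolerant leaf at 48 h and -2.39 ± 0.32 in the sensitive root at 8 h.

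**Figure D4:**
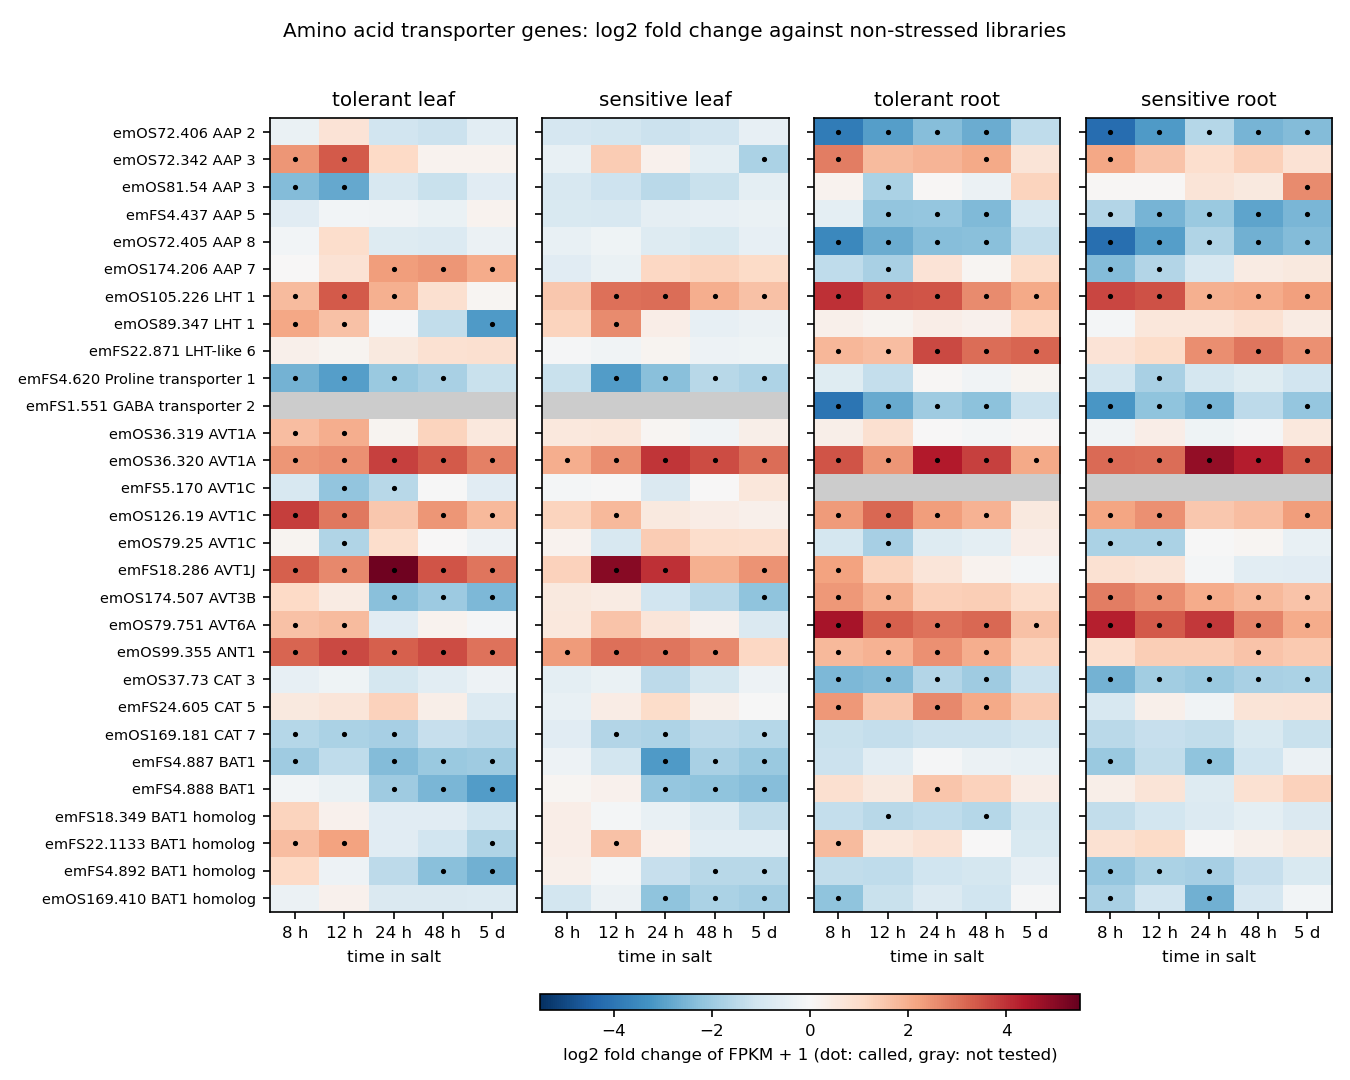
Log2 fold change of FPKM + 1 against time 0 (colour, red higher and blue lower) at each salt time (x axis) for 29 amino acid transporter genes (y axis) in each accession and tissue, with dots for calls and gray for genes not tested. AVT1A (emOS36.320) is called at every time in all 4 panels, but was tested in roots only because its salt libraries were high. AVT6A (emOS79.751) is called at all 5 times in roots of both accessions.

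5 days of salt changed more leaf members downward than upward relative to 8 to 48 h. At 5 days against time 0, 14 of 59 members were called in the tolerant leaf (5 higher and 9 lower) beside 9.33% of all genes, and 14 in the sensitive leaf (3 higher and 11 lower) beside 7.11%, the latter becoming 3 higher and 5 lower under median-ratio scaling. In roots 5 of 58 were called in the tolerant accession, all higher, beside 5.56%, and 13 in the sensitive accession (8 higher and 5 lower) beside 12.6%. By direction, 1067 of all genes were higher and 1038 lower in the tolerant leaf, and 862 and 741 in the sensitive leaf. In roots 663 of all genes were higher and 571 lower in the tolerant accession, and 1703 and 1100 in the sensitive accession. Against the mean of 8 to 48 h, the tolerant leaf had 10 members called, all lower, beside 4.79% of all genes, and the sensitive leaf 7 (1 higher and 6 lower) beside 5.30%. Roots had 8 (5 higher and 3 lower) beside 3.15% and 4 (3 higher and 1 lower) beside 3.67%. All genes leaned downward too in the tolerant leaf (322 higher and 759 lower), but upward in the sensitive leaf (822 and 373). In roots all genes gave 387 higher and 313 lower in the tolerant and 693 and 121 in the sensitive accession. Without the 6 libraries the tolerant leaf kept 6 of its 10 member calls and the tolerant root 7 of its 8, and 11 of these 29 member calls ended when some 1 library was left out. emOS89.347 had the deepest of these falls (-3.70 ± 0.39, adjusted p = 3.1e-07, and -3.28 without the 6 libraries), and 5 of the 10 were BAT genes, among them emFS4.888 (-1.84 ± 0.24), emFS4.892 (-1.94 ± 0.22) and emFS22.1133 (-2.21 ± 0.31). AAP7 and AAP3 (emOS81.54) were higher at 5 days than before in both roots, AAP7 by 1.61 ± 0.26 and 1.66 ± 0.26 and emOS81.54 by 1.65 ± 0.46 and 2.28 ± 0.46. The sensitive AAP7 value ended its call without 5 days replicate 1 or 2, at values between 1.31 and 2.24, and the tolerant emOS81.54 value without 5 days replicate 3 (1.42).

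The accessions were compared directly through the difference of their mean responses, and no member was called. In leaves 0 of 59 members passed in limma, beside 0.177% of all genes, with 10 members at an unadjusted p under 0.05. In roots 0 of 58 passed, beside 1.37%, with 8 at an unadjusted p under 0.05. CAT5 (emFS24.605) differed in roots by 2.16 ± 0.65 toward the tolerant accession (adjusted p = 0.081), and without the 6 libraries it was called (2.35, adjusted p = 0.029). In leaves AVT1C (emOS126.19) differed by 1.67 ± 0.54 (adjusted p = 0.15). A call in the tolerant list alone is therefore no shown difference between accessions for any member with all libraries included. Before salt, 2 of 59 members differed in leaves beside 2.03% of all genes, both lower in the tolerant accession. These were AVT1C (emOS126.19, -1.60 ± 0.48, adjusted p = 0.047, and 0.066 without the 6 libraries) and the second ANT1 gene emOS56.95, chosen here after its values were seen, with 4.38, 3.14 and 3.27 FPKM in the tolerant and 17.8, 12.8 and 10.6 FPKM in the sensitive leaf (-1.66 ± 0.43, adjusted p = 0.018). Median-ratio scaling called 0 members there, with the share of higher calls among all genes going from 40.2% to 53.0%. In roots 0 of 58 members differed before salt, beside 4.28% of all genes, with 14 at an unadjusted p under 0.05, and without the 6 libraries CAT5 (emFS24.605) was called there (-1.63, adjusted p = 0.042). The 6 libraries hold no time 0 library. Leaving them out changed the estimated spread and the adjusted p, and not the AVT1C and CAT5 differences before salt.

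Before salt, the tissues shared the family between them. Of 60 members tested over all libraries, 11 were higher in root and 11 higher in leaf in the tolerant accession, beside 13.2% and 10.7% of all genes. In the sensitive accession 9 were higher in root and 10 higher in leaf, beside 10.3% and 13.9%. Root-biased members included GABA transporter 2 (emFS1.551, 4.53 ± 0.19 and 4.06 ± 0.19 on the log2 scale), AAP7 (4.12 ± 0.46 and 3.64 ± 0.46), AAP8 (emOS72.405, 3.14 ± 0.35 and 3.43 ± 0.35), AAP2 (emOS72.406, 3.05 ± 0.39 and 3.11 ± 0.39), LHT-like 6 (emFS22.871, 3.23 ± 0.41 and 2.56 ± 0.41) and CAT3 (2.57 ± 0.26 and 2.37 ± 0.26). ProT1 (-3.37 ± 0.42 and -3.15 ± 0.42), AVT1A (emOS36.320, -3.39 ± 0.40 and -3.40 ± 0.40), GABA transporter 1 (emFS18.1910, -2.88 ± 0.37 and -2.75 ± 0.37) and BAT1 (emFS4.887, -2.45 ± 0.34 and -1.67 ± 0.34) were leaf-biased. All of these had an adjusted p of 4.5e-05 or less.

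The response to salt also differed between leaf and root, in a test added after the data were seen. The root minus leaf difference of the mean response was called for 13 of 60 members in the tolerant accession (6 toward root and 7 toward leaf), beside 11.0% of all genes, and for 9 in the sensitive accession (4 and 5), beside 10.4%. The tolerant count was again 13 with the 6 libraries left out, and 10 calls were kept. The tolerant leaf calls of AVT6A (emOS79.751) at 8 h (1.63) and 12 h (1.75) ended without any 1 of 6 and of 5 libraries of those times and time 0, with values of 1.49 to 1.85 and 1.57 to 1.96. Over 8 to 48 h it changed in the tolerant leaf by 0.74 and in the sensitive leaf by 0.75, and the difference from root was 2.74 ± 0.65 (adjusted p = 8.3e-04) and 2.81 ± 0.65 (adjusted p = 9.0e-04). AVT3B (emOS174.507) differed by 2.44 ± 0.35 and 2.70 ± 0.35, and tolerant leaves fell at 24 h to 7.04, 6.09 and 11.04 FPKM from tolerant controls of 34.0, 52.7 and 42.2 FPKM. AVT1J (emFS18.286) rose in leaves and its root changes of 1.08 and 0.22 were not called, a difference of -2.60 ± 0.93 (adjusted p = 0.027) and -2.84 ± 0.93 (adjusted p = 0.019). GABA transporter 2 did not exceed 0.18 FPKM in leaves, so that its difference is its fall in root. Leaf controls were also low for AAP2 (emOS72.406, 1.1 to 3.41 FPKM), AAP8 (emOS72.405, 0.22 to 1.89 FPKM) and CAT3 (emOS37.73, 0.85 to 3.49 FPKM). On the scale of log2(FPKM + 1) such levels limit how far a leaf value can fall. How much the level before salt enters these differences was not tested. AVT1A (emOS36.320) rose in both tissues, and its difference of 0.49 ± 0.45 and 0.82 ± 0.45 was not called.

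**Figure D5:**
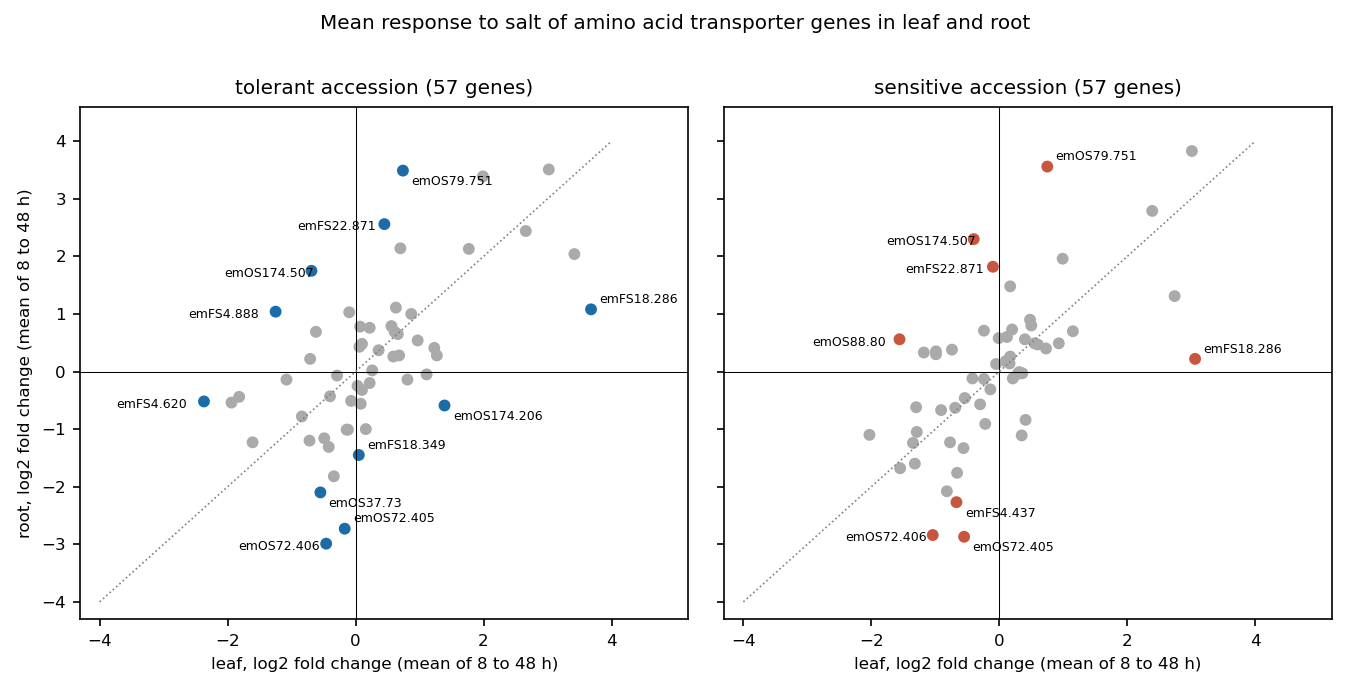
Mean log2 fold change over 8 to 48 h in leaf (x axis) and root (y axis) for 57 amino acid transporter genes tested in both tissues, in the tolerant (left) and sensitive (right) accession. Coloured and labelled genes were called for the root minus leaf difference and lie away from the dotted line of equal change, such as AVT6A (emOS79.751, 0.74 in leaf and 3.49 in root of the tolerant accession), and emFS5.170 and emFS1.551 were called but are not drawn because they were tested in 1 tissue.

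11 pairs of members lay within 50000 bp of each other, and near-identical copies could share or split reads in ways the table does not show. The pair emOS72.405 and emOS72.406 fell together in roots, and the pair emFS18.349 and emFS18.350 (BAT1 homologs 1578 bp apart) did not move alike, with tolerant root changes of -1.45 ± 0.22 and -0.20 ± 0.24. In the AVT1A pair emOS36.320 changed by 3.51 and emOS36.319 by 0.28 in the tolerant root. In the cluster of 4 BAT genes on chromosome 3 from 45027620 to 45059049, emFS4.887 and emFS4.892 fell in the sensitive root while emFS4.888 changed by 0.30 ± 0.45.

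Other genes of amino acid and peptide handling were read from lists of names. Of 11 tested genes of proline and GABA metabolism, 2 were higher and 0 lower in each leaf, 3 higher and 2 lower in the tolerant root and 4 higher and 1 lower in the sensitive root. Of all genes tested, 10.1% and 8.24% were called in either direction in tolerant and sensitive leaves and 9.75% (2163 of 22194) and 2221 of 22194 in tolerant and sensitive roots. The proline synthesis gene P5CS2 (emFS18.1840, delta-1-pyrroline-5-carboxylate synthase) rose by 3.36 ± 0.25 and 2.56 ± 0.25 in tolerant and sensitive leaves and by 4.30 ± 0.35 and 3.45 ± 0.35 in roots. Proline dehydrogenase (emOS55.1752), which breaks down proline, fell by 2.55 in the tolerant root (SE 0.42, adjusted p = 1.7e-05). Among genes of glutamine, asparagine, glutamate and alanine metabolism, 2 of 28 were higher and 1 lower in the tolerant leaf, 3 and 0 in the sensitive leaf, 1 and 4 of 29 in the tolerant root and 4 and 1 in the sensitive root. Asparagine synthetase (emOS55.752) rose by 5.53 ± 0.92 and 2.98 ± 0.92 in leaves, and a root glutamine synthetase (emOS99.1097) by 3.84 ± 0.48 and 3.58 ± 0.48 in roots. Peptide carriers were called only downward, 4 of 24 in each leaf, 3 of 23 in the tolerant root and 4 of 23 in the sensitive root, with medians of -0.36, -0.74, -0.66 and -0.79 in that order of tissues and accessions, beside the medians of all genes given above. Of 5 auxin influx carriers, relatives of the AAP family by sequence, 0 were called except 1 lower in the sensitive leaf.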

How the data were processed

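RNA-seq libraries from leaves and roots of 2 P. vaginatum accessions (72 libraries, 24 groups of 3) were measured. The authors trimmed reads with Trimmomatic 0.32, aligned them with HISAT2 2.1.0 and deposited FPKM per gene model (RPKM in their methods) with 2 decimals. Genome build: not given in the sources used here. Strand setting and read depth are likewise unknown. Groups came from the sample labels. FPKM are not counts, so log2(FPKM + 1) was tested with limma 3.58.1 in R 4.3.3 (trend and empirical Bayes), with 1 fit per tissue over 36 libraries in 12 groups, for genes at 1 FPKM or more in at least 3 libraries, and Benjamini-Hochberg adjustment over all genes tested. Root against leaf used 1 fit of 72 libraries.

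Members and lists were chosen with earlier results of these data known. Genes named were up to 30 members called in a mean contrast or at 2 or more early times in the same direction, those called between accessions, and the most abundant member of each subfamily in leaves and roots. The genes that check the accession, and the cut of 2/3 of the accession's median score, were set after the data were seen. The limma code was tested on simulated data. Alternatives covered the pseudocount, filter, scaling, fold threshold, replicate block, times and each library.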

Additional observations from a re-analysis of the deposited data

Results flagged for a closer look

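The mean response over 8 to 48 h differed between root and leaf for the following members, by a limma test of the difference itself that was run after the data were seen. Values are root minus leaf differences of log2 fold changes, positive toward root.

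In the tolerant accession the difference was negative for emOS72.406 (AAP2, -2.53), emOS72.405 (AAP8, -2.56), emOS174.206 (AAP7, -1.98), emFS18.286 (AVT1J, -2.60), emFS18.349 (BAT1 homolog, -1.51), emOS37.73 (CAT3, -1.55) and emFS1.551 (GABA transporter 2, -2.65). It was positive for emFS5.170 (AVT1C, 1.57), emOS174.507 (AVT3B, 2.44), emOS79.751 (AVT6A, 2.74), emFS4.888 (BAT1, 2.29), emFS22.871 (LHT-like 6, 2.11) and emFS4.620 (ProT1, 1.85). Without the 6 libraries of low accession score, 3 of these calls were lost (emFS5.170, emFS18.349 and emOS37.73).

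In the sensitive accession it was negative for emOS72.406 (-1.80), emFS4.437 (AAP5, -1.61), emOS72.405 (-2.32), emFS18.286 (-2.84) and emFS1.551 (-2.34). It was positive for emOS174.507 (2.70), emOS79.751 (2.81), emFS22.871 (1.92) and emOS88.80 (LHT-like 8, 2.12).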

How the results depend on the processing

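Over 44 values of members called in a mean contrast, 0 changed direction under any alternative. Leaving out each library in turn gave 660 values, of which 6 no longer passed, and the other settings gave 682, of which 36 no longer passed. Counts of calls ranged, with each library left out in turn, over 10 to 12 (tolerant leaf), 5 to 9 (sensitive leaf), 14 to 15 (tolerant root), 13 to 15 (sensitive root), 0 to 1 (accession difference in leaf and in root), 0 to 3 and 0 to 1 (accessions before salt in leaf and root), 20 to 25 and 16 to 18 (root against leaf, tolerant and sensitive), 252 to 269 (single times), 26 to 32 (5 days against earlier) and 9 to 16 and 8 to 12 (root minus leaf).

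With a pseudocount of 0.1 the sensitive leaf had 13 calls, the leaf before salt 4 and 5 days against earlier 44. With 5 the tolerant leaf had 6, the tolerant root 9, the sensitive root 6, the leaf before salt 0, root against leaf 9 and 7, single times 144, 5 days against earlier 6 and root minus leaf 8 and 5. With no filter the leaf before salt had 1. With a mean of at least 5 FPKM it had 1, root against leaf 13 and 11, and root minus leaf 8 and 4. Median-ratio scaling gave 0 in leaf and 1 in root before salt. A log2 fold threshold of 1 gave 17 in the tolerant leaf, 24 in the tolerant root, 13 in the sensitive leaf, 22 in the sensitive root, 4 and 1 before salt in leaf and root, 401 at single times, 58 for 5 days against earlier and 21 and 14 for root minus leaf. The accession difference in root had 1 call without 12 h, without 48 h and without the 6 libraries. The mean of 8 and 12 h gave 17 in the tolerant leaf, and that of 24 and 48 h 13 in the sensitive leaf. The cause of these changes was not tested.

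With the replicate block the leaf before salt had 1 call, and no other count moved by over 1.5 times. Whether samples of the same number belong together is not known. Within a tissue, 4 of 12 same-number pairs of control and salt deviations had a correlation over 0.1 (range -0.207 to 0.345). Pairs of different number ran from -0.466 to 0.442, so this comparison cannot decide it. Leaf and root of the same number were not compared. Without counts, the precision of low FPKM values cannot be given.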
